A study of Homo sapiens with 6 samples.

Results

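The keratins are the genes of the table whose symbol is KRT followed by a number, with or without 1 letter from A to C. There are 55 of them among 19470 genes, and keratin-associated protein genes were left out. HCCC9810 is a wild type human cholangiocarcinoma (CCA) cell line, and each of its 6 RNA-seq libraries was made from total RNA after 24 h of culture with vehicle or drug. The 3 control libraries received vehicle (DMSO), and the 3 ILL libraries received isolinderalactone (ILL), a plant sesquiterpene lactone, at 20 μM. Nothing in the labels says whether the libraries of a group came from separate cultures, so the p-values measure the spread between these libraries, which may be technical.

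Keratins are the intermediate filament proteins of epithelial cells, and their filaments are built from pairs of an acidic type I and a basic type II keratin. Simple epithelia, including the lining of bile ducts, use KRT8 with KRT18 and add KRT7 and KRT19, which pathologists stain to recognise biliary tumors. Squamous epithelia use KRT5 with KRT14 in the basal layer, other pairs in the layers above, and KRT6 with KRT16 and KRT17 when they are wounded or proliferate, while hair and nail have keratins of their own.

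Several keratins are close copies of each other, and some copies moved alike while others did not. The KRT6 genes lie next to each other on chromosome 12 of GRCh38, and their coding sequences are 97.5% identical between KRT6B and KRT6A, 98.5% between KRT6B and KRT6C and 97.9% between KRT6A and KRT6C. The lines below give the same 60 coding bases of exon 2 in each (minus strand, chr12:52450439-52450498 for KRT6B, chr12:52491555-52491614 for KRT6A and chr12:52472099-52472158 for KRT6C), with the 9 bases at which they are not all alike in capitals.
KRT6B: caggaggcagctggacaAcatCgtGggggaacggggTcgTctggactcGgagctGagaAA
KRT6A: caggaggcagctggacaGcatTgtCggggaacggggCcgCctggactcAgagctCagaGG
KRT6C: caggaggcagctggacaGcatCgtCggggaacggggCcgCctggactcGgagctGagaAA

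The type I genes KRT17, KRT16 and KRT14 are neighbors on chromosome 17 and are less alike, with coding identities of 80.9% between KRT17 and KRT16, 85.2% between KRT17 and KRT14 and 88.7% between KRT16 and KRT14. The matching 60 bases of coding exon 1 (minus strand, chr17:41624085-41624144 for KRT17, chr17:41612165-41612224 for KRT16 and chr17:41586317-41586376 for KRT14) are shown because these neighbors moved in different directions, and capitals mark 25 bases that are not shared by all.
KRT17: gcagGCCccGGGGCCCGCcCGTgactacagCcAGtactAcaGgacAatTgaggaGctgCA
KRT16: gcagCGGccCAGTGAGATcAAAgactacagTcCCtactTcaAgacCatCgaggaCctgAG
KRT14: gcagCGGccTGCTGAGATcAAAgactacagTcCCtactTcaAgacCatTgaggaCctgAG

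The hair keratins KRT81 and KRT86 share 94.2% of their aligned coding bases, including an identical run of 605 bases. The matching 60 bases of coding exon 5 (chr12:52288011-52288070 on the minus strand for KRT81, chr12:52305318-52305377 on the plus strand for KRT86 and chr12:52316886-52316945 on the minus strand for KRT83) are shown because KRT81 was the one hair keratin at a high level, and capitals mark the 7 bases that are not alike in all.
KRT81: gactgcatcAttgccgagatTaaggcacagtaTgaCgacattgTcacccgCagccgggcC
KRT86: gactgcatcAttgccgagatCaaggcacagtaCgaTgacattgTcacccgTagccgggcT
KRT83: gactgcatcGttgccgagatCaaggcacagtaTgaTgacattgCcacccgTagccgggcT

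Total counts lay between 34282764 and 37758569 per library, and replicates were further apart than sampling of reads allows (chi-square per degree of freedom from 5.12 to 11.8), so each counted as 1 replicate. Of the 8 biliary marker genes, KRT7, KRT19, EPCAM and CDH1 were at high levels in every library and CFTR had no count in any. The summed FPKM (reads per kilobase of gene, scaled to the size of the library) of the biliary list was 2441 to 2587 in controls and 2662 to 2840 with ILL. Most of that sum was KRT7 and KRT19, themselves keratins (691.3 and 1512 FPKM in control replicate 1). It therefore says little about the rest of the biliary list. The lists of other cell types were low, at 9.77 to 12.01 and 9.19 to 15.6 summed FPKM for 8 hepatocyte genes, 3.48 to 4.81 and 4.87 to 5.09 for 8 fibroblast genes, 0.845 to 1.29 and 1.20 to 1.77 for 8 leukocyte genes, and 0.234 to 0.321 and 0.293 to 0.375 for 5 endothelial genes. Among the markers that never exceeded 3 counts in a library were CYP3A4 and TTR of the hepatocyte list, COL3A1, DCN, PDGFRA and PDGFRB of the fibroblast list, CD3D, CD3E and MS4A1 of the leukocyte list, and KDR of the endothelial list.

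Of the 55 keratins, 22 had enough counts to be tested among 13066 genes, and the 33 others had at most 30 counts in any library. Genes are said to have risen or fallen where edgeR's quasi-likelihood test gave a Benjamini-Hochberg adjusted p under 0.05, and differentially expressed genes (DEGs) also changed by more than 2-fold. With ILL 9 keratins rose and 8 fell, against a background of 36.2% of all tested genes that rose and 36.9% that fell. The share of tested keratins that passed in either direction, 77.3%, was near the 73.1% of all tested genes. Of the DEGs, 6 keratins were higher (KRT6B, KRT16, KRT17, KRT81, KRT86 and KRT6C) and 2 lower (KRT3 and KRT4), against 12.5% and 11.4% of all tested genes. The median log2 fold change was 0.34 over the 22 tested keratins and -0.0012 over all tested genes. In 19 of the tested keratins the ILL libraries did not overlap the control libraries, against 75.4% of all tested genes.

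The line expressed keratins of simple and squamous epithelium side by side. In controls 8 keratins exceeded 100 FPKM, namely KRT17, KRT8, KRT19, KRT6A, KRT18, KRT7, KRT5 and KRT81, and with ILL these and KRT6B did. The 8 held 98.6% of the keratin FPKM of controls. At the other end, 4 tested keratins were under 1 FPKM in both groups.

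**Figure D1:**
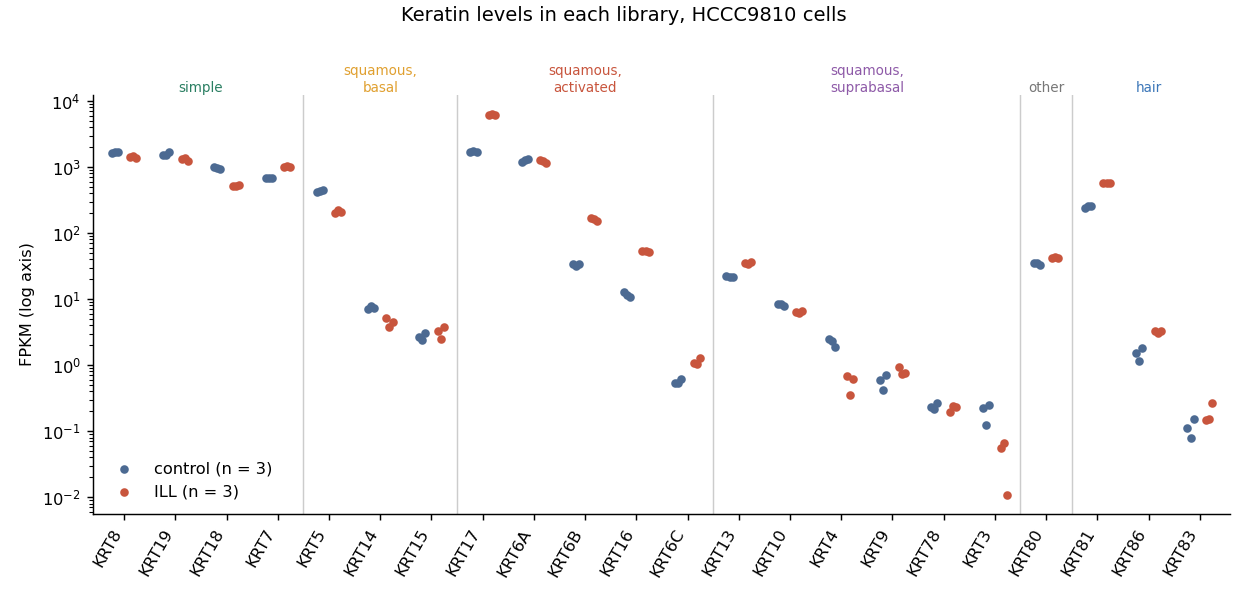
FPKM of the 22 tested keratins on a log axis, with 1 point per library (blue control, red ILL, n = 3 each) and genes grouped by the epithelium that uses them. KRT17 lies highest with ILL, at 6091 to 6445 FPKM, while KRT3 has 1 ILL library at 1 count.

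The simple keratins were led by a drop of KRT18 and a rise of KRT7. KRT18, the type I partner of KRT8 (chromosome 12, 52948871 to 52952901), was at 989.6, 966.1 and 938.9 FPKM in controls and at 508.4, 522.1 and 531.1 FPKM with ILL. Every ILL library was below every control, with means of 965 ± 25.4 and 520.5 ± 11.4 FPKM (SD, n = 3). KRT18 fell 1.77-fold (log2 fold change -0.82, standard error 0.046, adjusted p = 4.22e-14 in edgeR's quasi-likelihood test), where a fold change also carries edgeR's TMM scaling, which FPKM does not. Fewer cells with a transcript and less of it per cell cannot be told apart in RNA from whole cultures.

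KRT8, the type II keratin of every simple epithelium (chromosome 12, 52897187 to 52949954), was at 1664, 1673 and 1678 FPKM in controls and at 1399, 1474 and 1394 FPKM with ILL. The groups did not overlap, but the step was small, at -0.16 on the log2 scale (adjusted p = 0.00176, edgeR, standard error 0.044). The ratio of KRT18 to KRT8 was 0.595, 0.577 and 0.560 in controls and 0.363, 0.354 and 0.381 with ILL. It was thus 0.634 times as high with ILL, without overlap. Over 10 ratios between keratins the two-sided exact permutation test gave p = 0.1 for this one (adjusted p = 0.143), which is the smallest that 3 libraries against 3 allow. The annotated exons of KRT8 and KRT18 overlap by 525 bases on opposite strands, which is 16.3% of the KRT18 and 7.63% of the KRT8 exon bases. Whether the counting used strand is not given in the sources used here, and the part of the overlap in the counts was not tested.

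KRT7 and KRT19, the pair stained as biliary markers, moved in opposite directions. KRT7, a type II keratin of ducts and glands (chromosome 12, 52232520 to 52252186), was at 691.3, 676.8 and 690.2 FPKM in controls and at 1001, 1052 and 1007 FPKM with ILL. It rose 1.56-fold in edgeR (log2 fold change 0.64, standard error 0.044, adjusted p = 2.56e-12), with all ILL libraries above all controls. KRT19, the smallest type I keratin (chromosome 17, 41523617 to 41528308), was at 1512, 1521 and 1665 FPKM in controls and at 1337, 1369 and 1243 FPKM with ILL. Its drop was small (log2 fold change -0.18, standard error 0.051, adjusted p = 0.00254, edgeR), also without overlap. The ratio of KRT7 to KRT19 went from 0.439 ± 0.0220 to 0.776 ± 0.0312 (SD, n = 3), with exact permutation p = 0.1 and adjusted p = 0.143. An antisense gene, KRT7-AS, overlaps 6.89% of the KRT7 exon bases. KRT20, a keratin of intestinal and some urothelial cells, had 1 count in 1 ILL library and none elsewhere. A count of 0 allows up to 3 counts, or 0.0773 to 0.0872 CPM (counts scaled to library size) in these libraries, for counting error only.

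Of the 5 simple keratins, then, 4 were tested, 1 rose, 3 fell and none reached the 2-fold cutoff in edgeR, with a median log2 fold change of -0.17. By DESeq2's test none of the 4 reached that cutoff either. The squamous keratins spread wider. Of 20, 14 were tested, with 5 that rose, 5 that fell and 4 that did not pass. Among all tested genes 36.2% rose and 36.9% fell, and the squamous counts lay near these shares. The squamous log2 fold changes ran from -2.09 to 2.35 around a median of 0.16. The difference between the sets was in the spread between members more than in the median, but a range over 14 genes tends to be wider than one over 4. The lower end of the squamous range was KRT3, with at most 22 counts in a library. No test was made over the members.

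**Figure D2:**
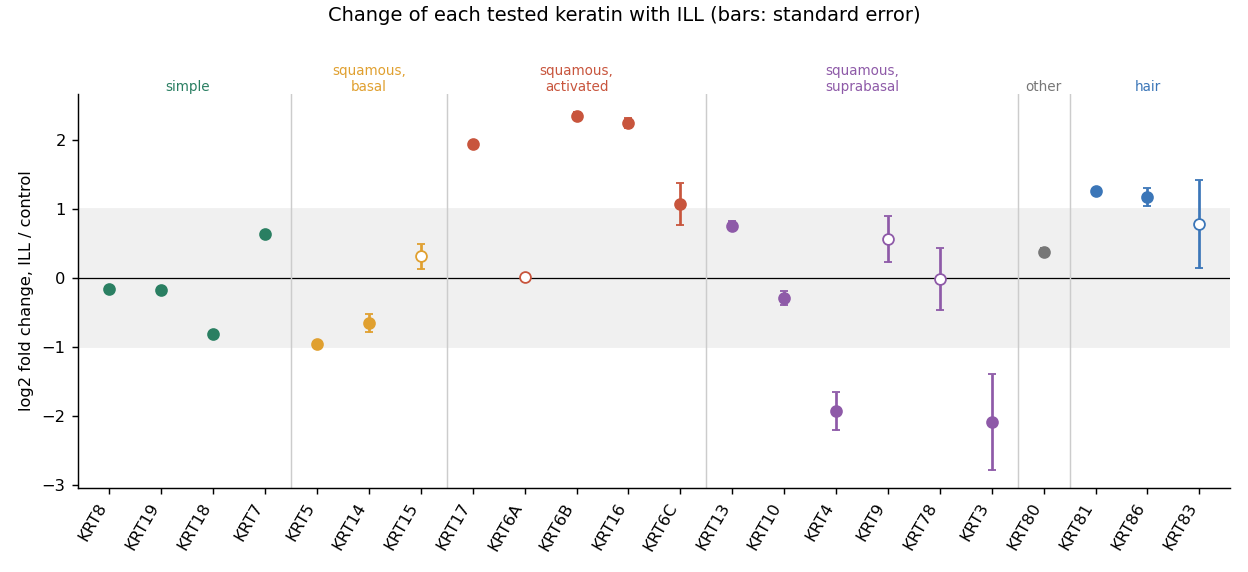
Log2 fold change, ILL against control, of the 22 tested keratins with bars for the standard error. Filled points have an adjusted p under 0.05 in edgeR's test, open points do not, and the grey band holds changes under 2-fold. The activated squamous keratins lie from 0.0079 (KRT6A) to 2.35 (KRT6B), and the simple keratins all lie inside the band.

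Of the 5 squamous keratins known from activated keratinocytes, 4 rose and KRT6A did not pass the test, where 36.2% of all tested genes rose. KRT17, a type I keratin of wounded epidermis and of many carcinomas (chromosome 17, 41619441 to 41624842), was at 1669, 1736 and 1720 FPKM in controls and at 6223, 6445 and 6091 FPKM with ILL. The groups were far apart, at 1708 ± 35.4 and 6253 ± 179 FPKM (SD, n = 3). KRT17 rose 3.84-fold in edgeR (log2 fold change 1.94, standard error 0.044, adjusted p = 1.06e-21). By mean FPKM it stood at rank 32 among all genes in controls and at rank 3 with ILL, and with ILL it took the 4th most counts, after ACTB, ACTG1 and FTH1.

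KRT16, a type I keratin that pairs with KRT6 (chromosome 17, 41609778 to 41615899), was far below KRT17, at 12.99, 11.54 and 10.65 FPKM in controls. It rose to 53.26, 54.01 and 52.10 FPKM with ILL, a 4.75-fold change (log2 fold change 2.25, standard error 0.073, adjusted p = 7.07e-19, edgeR). The ratio of KRT16 to KRT17 was 1.24 times as high with ILL, at 0.00687 ± 0.000819 in controls and 0.00850 ± 0.000102 with ILL (SD, n = 3), with exact permutation p = 0.1 and adjusted p = 0.143.

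The type II partners split. KRT6A, the main KRT6 gene of these cells (chromosome 12, 52487174 to 52493257), was at 1203, 1302 and 1309 FPKM in controls and at 1264, 1224 and 1167 FPKM with ILL. The groups overlapped, and its log2 fold change of 0.0079 did not pass edgeR's test (standard error 0.047, 95% interval -0.085 to 0.10, adjusted p = 0.889), with the sign turning to -0.061 under scaling by library size only. KRT6B (chromosome 12, 52446651 to 52452126) was at 34.55, 31.83 and 33.87 FPKM in controls and at 170.1, 162.6 and 154.6 FPKM with ILL. KRT6B rose 5.10-fold (log2 fold change 2.35, standard error 0.056, adjusted p = 2.26e-21, edgeR), the largest increase among the tested keratins. KRT6C, at 47, 43 and 49 counts in controls and 88, 84 and 107 counts with ILL, rose 2.10-fold (log2 fold change 1.07, standard error 0.30, adjusted p = 0.0029, edgeR).

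KRT6B therefore took 2.79%, 2.39% and 2.52% of the summed FPKM of KRT6A, KRT6B and KRT6C in controls and 11.9%, 11.7% and 11.7% with ILL. The ratio of KRT6B to KRT6A was 5.07 times as high with ILL (exact permutation p = 0.1, adjusted p = 0.143). Of the 75-base stretches of the KRT6B transcript, 17.6% also occur in KRT6A and 34% in KRT6C. For KRT6C, 42.9% of the stretches are shared with other genes, and for KRT6A 26.2%. How reads from such stretches were divided between the copies is not given in the sources used here, so the levels of KRT6B and above all of KRT6C are uncertain. KRT16 and KRT17 shared no such stretch with each other. KRT17 shared 4.19% of its stretches, all with pseudogenes, and KRT16 9.68%, in part with KRT14.

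The basal squamous keratins did not follow the activated ones. KRT5, the type II keratin of basal keratinocytes (chromosome 12, 52514575 to 52520687), was at 412.7, 427.2 and 452.9 FPKM in controls and at 201.4, 220.9 and 208.7 FPKM with ILL. All ILL libraries were lower, and KRT5 fell 1.95-fold (log2 fold change -0.97, standard error 0.052, adjusted p = 2.22e-14, edgeR), just short of the 2-fold cutoff. KRT14, its usual type I partner, had only 433, 443 and 423 counts in controls and 304, 220 and 265 counts with ILL. KRT14 fell as well (log2 fold change -0.66, standard error 0.13, adjusted p = 9.93e-05, edgeR), and at 7.45 ± 0.444 FPKM (SD, n = 3) in controls it was far below KRT5. KRT14 shares 10% of its stretches with other genes, 5.29% with KRT16. KRT15, a basal keratin used as a stem cell marker, had 201, 162 and 210 counts in controls and 236, 175 and 269 counts with ILL, with overlap and no call (log2 fold change 0.31, standard error 0.18, adjusted p = 0.116, edgeR).

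The ratio of KRT17 to KRT5 set these directions side by side. It was 4.04, 4.06 and 3.80 in controls and 30.9, 29.2 and 29.2 with ILL, 7.5 times as high (exact permutation p = 0.1, adjusted p = 0.143). KRT14 to KRT5, the classical basal pair, was 0.0173 ± 0.00106 in controls and 0.0216 ± 0.00436 with ILL (SD, n = 3), with 1 ILL library inside the control range (exact permutation p = 0.2, adjusted p = 0.25).

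The suprabasal keratins, made by squamous cells as they differentiate, were low and mixed. KRT13, the type I keratin of the inner layers of mouth and esophagus, was the highest of them at 21.9 ± 0.322 FPKM (SD, n = 3) in controls. It rose to 35.4 ± 0.776 FPKM (SD, n = 3) with ILL (log2 fold change 0.76, standard error 0.063, adjusted p = 9.65e-11, edgeR), and 16.3% of its exon bases lie over AC019349.1 on the other strand. KRT4, the usual partner of KRT13, went the other way, from 201, 169 and 139 counts to 53, 27 and 47 counts. KRT4 fell 3.81-fold (log2 fold change -1.93, standard error 0.27, adjusted p = 8.06e-07, edgeR), without overlap.

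KRT10, the type I keratin of the upper epidermis, fell from 681, 620 and 593 counts to 494, 474 and 509 counts (log2 fold change -0.29, standard error 0.097, adjusted p = 0.00982, edgeR). Its partner KRT1 had no count in any library and was not tested. KRT3, known from corneal epithelium, had 22, 11 and 22 counts in controls and 5, 6 and 1 counts with ILL. KRT3 fell (log2 fold change -2.09, standard error 0.69, adjusted p = 0.00939, edgeR), a call that was lost when ILL replicate 3, the library with 1 count, was left out (adjusted p = 0.0582). KRT9, the keratin of palms and soles, with 51, 33 and 57 counts against 77, 59 and 63, did not pass edgeR's test (log2 fold change 0.56, adjusted p = 0.138), although its groups did not overlap. KRT78, with 26, 22 and 28 counts against 21, 26 and 25, did not pass either (log2 fold change -0.012, adjusted p = 0.983, edgeR), its sign turning to 0.088 without control replicate 3. Over the set, 6 of 12 suprabasal keratins were tested, 1 rose, 3 fell and 2 did not pass. Of the 5 activated keratins 4 rose and 1 did not pass, and of the 3 basal keratins 2 fell and 1 did not pass. These sets are small, and among all tested genes 36.2% rose and 36.9% fell.

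Hair keratins were also present. KRT81, a type II keratin of the hair cortex (chromosome 12, 52285913 to 52291534), was at 241.3, 260.5 and 254.1 FPKM in controls and at 577.2, 576.7 and 572.2 FPKM with ILL. The groups were well apart, and KRT81 rose 2.40-fold (log2 fold change 1.26, standard error 0.048, adjusted p = 1.73e-17, edgeR). KRT86, whose span on the plus strand (52249300 to 52309163) holds KRT81 on the minus strand, had 382, 257 and 410 counts in controls and 766, 711 and 781 counts with ILL. KRT86 rose 2.26-fold (log2 fold change 1.17, standard error 0.13, adjusted p = 8.27e-09, edgeR).

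The ratio of KRT86 to KRT81 in FPKM was 0.00597 ± 0.00140 in controls and 0.00560 ± 0.000265 with ILL (SD, n = 3), with exact permutation p = 0.8. This ratio also depends on the gene lengths used for FPKM. In control replicate 1, KRT86 had 382 counts and 1.545 FPKM, and KRT81 had 17577 counts and 241.3 FPKM. Of the 75-base stretches of KRT86, 28.6% also occur in KRT81, so both the low level of KRT86 and its rise are uncertain. For KRT81, 36.6% of the stretches are shared with other genes. KRT83, with 8, 5 and 10 counts against 10, 10 and 18, did not pass edgeR's test (log2 fold change 0.78, standard error 0.64, adjusted p = 0.275). Of 17 hair keratins, 3 were tested, 2 rose, against 36.2% of all tested genes, and 9 had no count in any library. KRT80, a type II keratin of many epithelia that is grouped here with neither set, rose from 34.4 ± 1.29 to 42.6 ± 1.31 FPKM (SD, n = 3; log2 fold change 0.38, standard error 0.053, adjusted p = 6.6e-07, edgeR).

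The 33 keratins that were not tested were near or at 0, and 20 had no count in any library, among them 7 of the 9 root sheath keratins. The 10 with more than 3 counts in a library were KRT23, KRT24, KRT32, KRT33B, KRT34, KRT38, KRT71, KRT75, KRT77 and KRT85. KRT23, a type I keratin of gut and liver epithelia, had 0, 3 and 4 counts in controls and 30, 7 and 14 counts with ILL, without overlap. DESeq2, whose filter kept it, put it at 2.91 on the log2 scale (adjusted p = 0.00665, standard error 1.0). KRT75, a hair follicle keratin, had 1, 0 and 9 counts in controls and none with ILL, and KRT34 had 9, 2 and 11 counts against 10, 10 and 9. The highest count in a library for the other 7 was 6.

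The makeup of the keratin transcripts changed in the same step, while keratin protein was not measured in these libraries. Summed keratin FPKM was 8511, 8687 and 8831 in controls and 12830, 13200 and 12520 with ILL, with no overlap. Simple keratins held 57.1%, 55.7% and 56.3% of it in controls and 33.1%, 33.5% and 33.3% with ILL. Squamous keratins held 39.7%, 40.9% and 40.4% in controls and 62.1%, 61.8% and 61.7% with ILL. The larger set was thus the simple one in every control library and the squamous one in every ILL library.

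In summed FPKM the simple keratins went from 4889 ± 73.0 to 4279 ± 124 and the squamous ones from 3499.9 ± 107 to 7949 ± 215 (SD, n = 3). As shares of all keratin FPKM, the activated squamous keratins went from 34.9% to 59.8% and the basal ones from 5.08% to 1.70%. The suprabasal ones went from 0.385% to 0.338%. KRT17 alone went from 19.7% to 48.7%, and KRT6B from 0.385% to 1.26%. KRT8 went from 19.3% to 11.1%, KRT19 from 18.04% to 10.2%, KRT18 from 11.1% to 4.05% and KRT6A from 14.6% to 9.48%. KRT7 held 7.91% and 7.94%. Shares fall when another member rises, and KRT6A lost share with no call on its level.

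**Figure D3:**
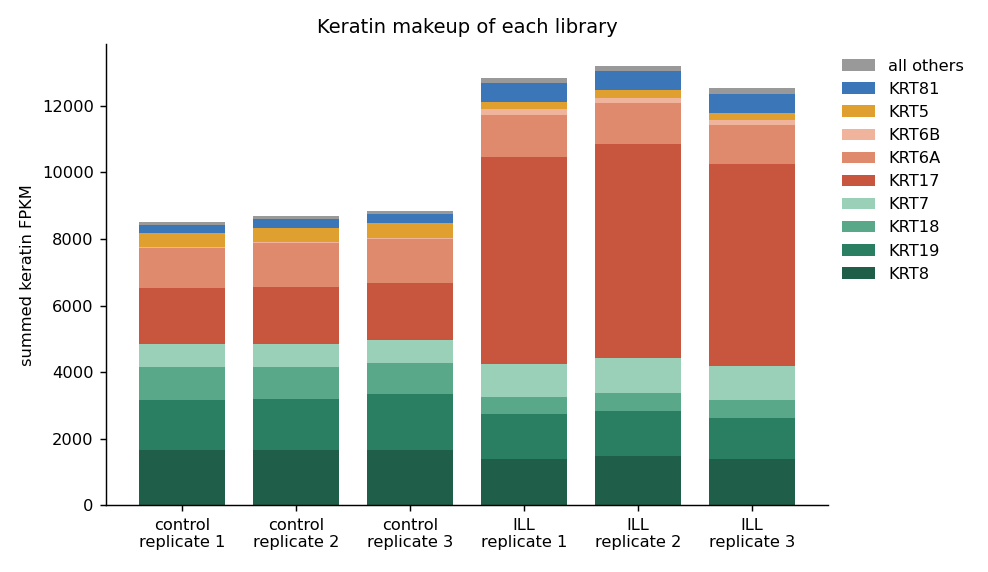
Summed keratin FPKM of each library, divided among 9 keratins and all others, with 3 control and 3 ILL libraries. Greens are simple keratins, reds and pinks are activated squamous ones, orange is KRT5 and blue is KRT81. The dark red KRT17 segment grows from 1669 to 1736 FPKM in controls to 6091 to 6445 FPKM with ILL.

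Sums without KRT17, chosen after its values were seen, differed much less between the groups. Its rise of 4545 FPKM exceeded the net rise of all keratins, 4174 FPKM. Without KRT17 the keratin sum was 6840, 6950 and 7110 FPKM in controls and 6610, 6750 and 6430 FPKM with ILL. The ratio of squamous to simple FPKM was 0.695, 0.735 and 0.718 in controls and 1.88, 1.85 and 1.85 with ILL, but without KRT17 it was 0.352, 0.376 and 0.372 against 0.410, 0.387 and 0.392.

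The balance of type I and type II keratin transcripts moved with KRT17. Type I FPKM per type II FPKM was 0.985, 0.969 and 0.982 in controls, near parity, and 1.75, 1.77 and 1.75 with ILL. Summed type II FPKM was 4385 ± 87.6 and 4657 ± 104, against 4292 ± 76.8 and 8194 ± 235 for type I (SD, n = 3). Without KRT17 the ratio was lower with ILL, at 0.419, 0.419 and 0.413 against 0.596, 0.576 and 0.596. By number of genes, 3 type I keratins rose, 4 fell and 2 did not pass, and 6 type II keratins rose, 4 fell and 3 did not pass. Among all tested genes 36.2% rose and 36.9% fell.

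Neighbors in the genome did not share a direction throughout. On chromosome 12, KRT80, KRT7, KRT86 and KRT81 are consecutive keratins and all rose, though the rise of KRT86 is uncertain. KRT6B, KRT6C, KRT6A and KRT5 are consecutive too and include a rise of 2.35, a log2 fold change of 0.0079 and a fall to -0.97. KRT3 and KRT4 at the far side both fell, as did KRT8 and KRT18 at the end of the cluster. On chromosome 17, KRT14 fell and the next keratins, KRT16 and KRT17, rose by 2.25 and 1.94 on the log2 scale. KRT14 and KRT16 lie between 41582279 and 41615899, with no other keratin between them.

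**Figure D4:**
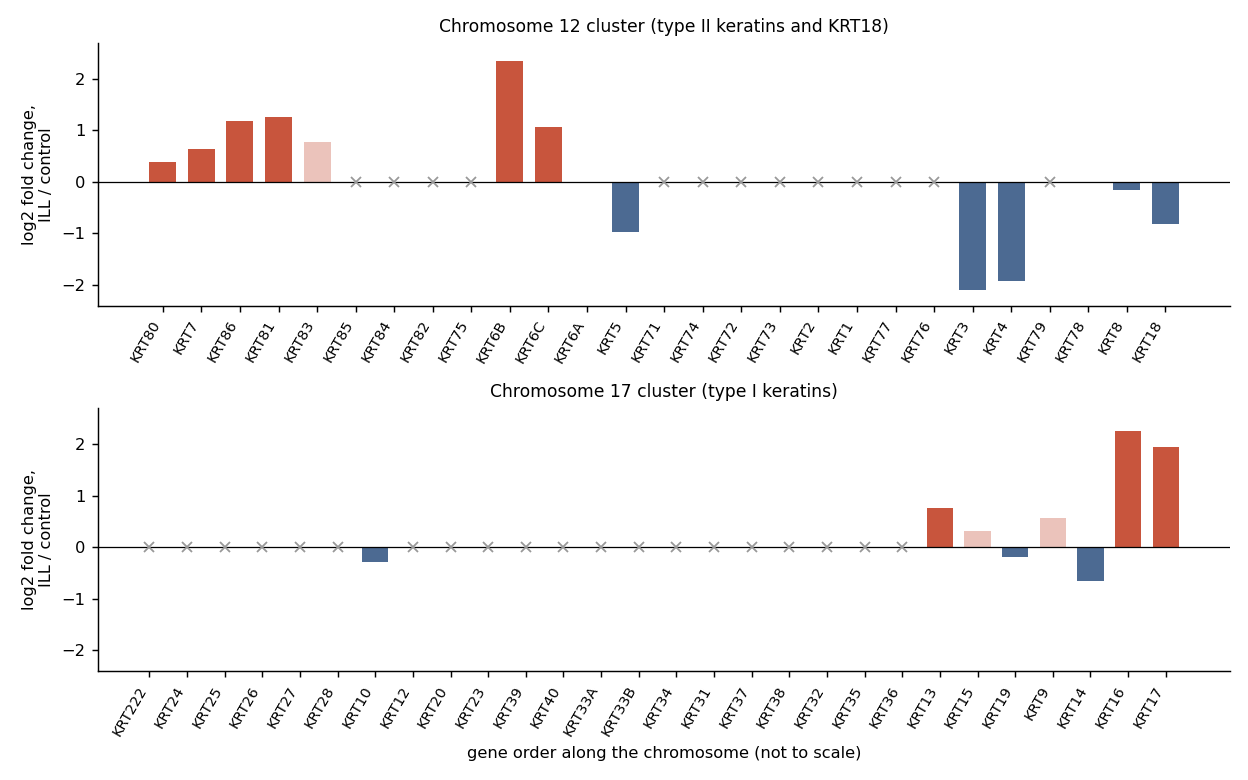
Log2 fold change, ILL against control, of keratins in gene order along the chromosome 12 and chromosome 17 clusters (not to scale). Red bars rose and blue bars fell in edgeR's test, pale bars did not pass, and crosses are keratins that were not tested. KRT6B (2.35) and KRT5 (-0.97) have KRT6C and KRT6A between them.

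Keratin filaments are tied to desmosomes and hemidesmosomes by plakins and plakophilins. Of 22 anchor genes, 18 were tested, 11 rose, 5 fell and 2 did not pass, with a median log2 fold change of 0.31, where 36.2% of all tested genes rose and 36.9% fell. The anchor list and the lists below were chosen with earlier results of these data known, so their counts are descriptive only. DSG3, the desmosomal cadherin of squamous epithelium, had 319, 287 and 257 counts in controls and 2704, 2399 and 2177 counts with ILL, without overlap (log2 fold change 3.14, standard error 0.090, adjusted p = 6.92e-20, edgeR). EPPK1, an epiplakin that binds keratins, rose by 2.62 on the log2 scale, TRIM29, a keratin-binding tripartite motif protein, by 2.35, and DSC2, a desmocollin, by 1.51. PNN, pinin, described at desmosomes and in the nucleus, was the DEG that fell (log2 fold change -1.03). DSP, desmoplakin, which links keratins to all desmosomes, was named after its values were seen and rose by 0.31.

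Of 16 transcription factors known from squamous epithelium, 13 were tested, 11 rose and 2 fell, with 8 DEGs, all higher, and a median of 1.51. Over all tested genes 36.2% rose, 36.9% fell and 12.5% were higher DEGs. Because the list was chosen with earlier results of these data known, its excess over these shares is descriptive only. GRHL3, a grainyhead factor of epidermal barrier formation, had 39, 40 and 25 counts in controls and 222, 281 and 295 counts with ILL (log2 fold change 3.003, standard error 0.23, adjusted p = 2.73e-11, edgeR). GRHL1 rose by 2.68, KLF4, a factor of differentiating epithelium, by 2.18 and ELF3, an epithelial ETS factor, by 1.80. GRHL2 and OVOL2, named after their values were seen, fell (log2 fold changes -0.42 and -0.56). SOX2, TFAP2C and ZNF750 had too few counts to be tested. TP63, the master factor of basal squamous cells, which was named after its values were seen, rose by 0.79 and was no DEG.

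The cornified envelope, the protein shell of terminally differentiated squamous cells, did not move one way. Of 15 genes, 12 were tested, 5 rose, 4 fell and 3 did not pass, with a median of 0.092, near the 36.2% that rose and 36.9% that fell of all tested genes. CSTA, a protease inhibitor of the envelope, rose by 1.78 on the log2 scale. FLG, filaggrin, which bundles keratins, went from 1427, 1277 and 1137 counts to 52, 33 and 31 counts, and fell (log2 fold change -4.98, standard error 0.15, adjusted p = 1.03e-19, edgeR). TGM1, the transglutaminase that crosslinks the envelope, fell by 1.24 on the log2 scale.

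Of 18 other intermediate filament genes and their relatives, 12 were tested, 3 rose, 4 fell and 5 did not pass, with a median of -0.17, against 36.2% that rose and 36.9% that fell of all tested genes. VIM, vimentin, the filament of mesenchymal cells, was at 189.6, 185.6 and 205.3 FPKM in controls and at 55.52, 54.49 and 52.47 FPKM with ILL. It fell 3.41-fold (log2 fold change -1.77, standard error 0.054, adjusted p = 2.83e-19, edgeR), without overlap. The nuclear lamins LMNB1 and LMNB2 fell by 3.08 and 1.20 on the log2 scale, while SYNC rose by 2.24, DES by 1.75 and IFFO2 by 1.54. SYNC and DES, a pair known from muscle, were at 1.34 and 0.569 CPM in controls.

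**Figure D5:**
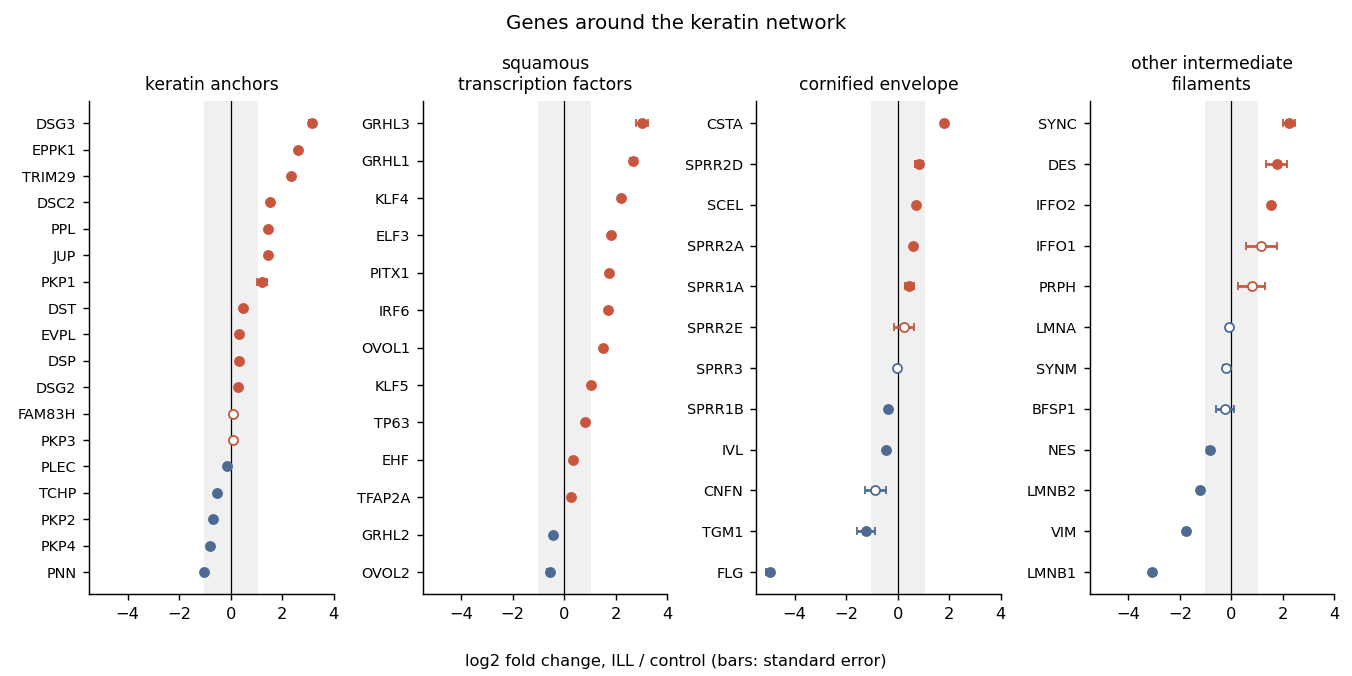
Log2 fold change, ILL against control, of the tested genes of 4 lists, with bars for the standard error and a grey band for changes under 2-fold. Filled points have an adjusted p under 0.05 in edgeR's test, red is higher and blue is lower with ILL. The lists run up to DSG3 at 3.14 and down to FLG at -4.98, and all 8 DEGs among the transcription factors are higher. The lists were chosen with earlier results of these data known.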

How the data were processed

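RNA-seq libraries of HCCC9810 cells (3 control, 3 with 20 μM ILL, 24 h) were grouped by the sample labels. The authors deposited unnormalized whole-number counts for each gene symbol. They also deposited FPKM, which divides each count by a gene length and the library's total. GRCh38 and DESeq2 are named in the submitters' processing notes, while the aligner, counting program and annotation are not given in the sources used here. Counts were filtered with filterByExpr, scaled by TMM and tested with edgeR's quasi-likelihood test (edgeR 4.0.16, R 4.3.3) with Benjamini-Hochberg adjustment over all 13066 tested genes. The common biological coefficient of variation was 0.0717. DEGs were those at an adjusted p-value below 0.05 that also changed more than 2-fold up or down, and the standard error is the log2 fold change divided by the root of the F statistic. The fit was tested on simulated data. Levels of different genes were compared as FPKM, and ratios with exact permutation tests.

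The members and gene lists were chosen with earlier results of these data known. Every tested keratin was named, untested ones where a library held over 3 counts, and from each other list up to 4 DEGs per direction whose groups did not overlap and whose mean reached 1 CPM. Positions, 75-base stretches and sequences come from GENCODE release 29 on GRCh38, with coding alignments by Biopython 1.88. The deviations of same-numbered libraries correlated at 0.0012, -0.015 and -0.043, so no shared effect of replicate number was seen. Whether same-numbered libraries were handled together cannot be told from this. The alternatives were DESeq2's size factors and its Wald test (DESeq2 1.42.0), library size only, other filters, no fold cutoff, leaving out each library, the replicate number as a block, limma 3.58.1 on log2 of FPKM plus 1 or 0.1, and raw counts for shares. The results of some marker genes are not reported here.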

Additional observations from a re-analysis of the deposited data

How the results depend on the processing

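Of 22 tested keratins, 18 kept direction and call in each alternative that gave them a value, which was 11 of the 15 for KRT83, 13 each for KRT6C and KRT9, and 15 for the rest of the 18. The exceptions were KRT6A (-0.061 with library size only and by limma, from -0.037 to 0.038 with a library left out), KRT78 (0.00044 with at least 10 counts per library, from -0.085 to 0.088 with a library left out), KRT15, called at 0.46 without ILL replicate 2 (adjusted p = 0.0261, edgeR), and KRT3, at -1.64 without ILL replicate 3 (adjusted p = 0.0582, edgeR). The replicate block, for which no shared effect was seen, gave 6 higher and 2 lower keratin DEGs as before. KRT6C was no DEG with library size only, without ILL replicate 3 or by limma without a filter, KRT3 was none by limma without a filter, KRT86 was none by limma with FPKM plus 1, and KRT5 was one with library size only, by limma, and without control replicate 1 or ILL replicate 2. KRT23 became a DEG without a count filter, by DESeq2 and in 4 fits with a library left out, and KRT75 a lower one without a count filter.

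Without the fold cutoff the calls were 4726 higher and 4821 lower over all genes, 8 lower keratins, 1 higher and 3 lower simple keratins, and 5 lower squamous ones. By limma on FPKM plus 1, 668 genes were higher and 923 lower DEGs (680 and 929 without a filter), against 909 higher with FPKM plus 0.1, and hair keratins had 1 higher DEG with either filter. With at least 10 counts per library, which drops KRT3, 1 keratin was a lower DEG, and 1 to 3 with a library left out. The simple median was -0.24 with library size only, by limma with FPKM plus 1 or 0.1, and -0.23 by limma without a filter. The squamous median was 0.0010 without a filter, 0.32 with at least 10 counts, 0.056 by limma with FPKM plus 1 and -0.014 without its filter, and the hair median was 0.048 by limma without a filter and 0.79 to 1.21 with a library left out. The cause of these shifts was not tested. The simple set held 4 tested genes in the main fit, with library size only and by limma with its filter. Neither scaling by library size only nor FPKM carries TMM scaling. Summed raw counts in place of FPKM put the change in share at -18.8 percentage points for simple and 17.01 for squamous keratins. With 3 libraries per group, ratios could not go below p = 0.1 in the exact permutation test, and keratins under about 100 counts have wide intervals.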
